A study of Mus musculus with 24 samples.

Results

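The genes described here license DNA replication origins. They are the 6 subunits of the replicative MCM helicase (Mcm2, Mcm3, Mcm4, Mcm5, Mcm6 and Mcm7), the loading factors Cdc6 and Cdt1, the Cdt1 inhibitor geminin (Gmnn), and Mcm10, which acts when the loaded helicase is switched on. These 10 genes were chosen by name, and all 10 were found among the 43280 gene symbols of the deposited count table. Their values are given in 4 epithelial populations of the mouse small-intestinal crypt, with and without neuregulin 1 (NRG1), a growth factor that acts through ErbB receptors.

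The libraries came from 6 male C57BL/6 mice that carried an Lgr5-EGFP reporter, in which EGFP marks cells that express the stem cell gene Lgr5. NRG1 was given to 3 mice by intraperitoneal injection of 7.5 µg every 12 h over 5 days, the other 3 received PBS on the same schedule, and tissue was collected on day 6. In each treatment the age was 15 weeks in replicates 1 and 2 and 11 weeks in replicate 3, so the 6 mice were not of a single litter. Live crypt cells that lacked the endothelial marker CD31 and the leukocyte marker CD45, and excluded propidium iodide, were gated on EGFP and CD24 as Lgr5high-CD24low (crypt base columnar stem cells), Lgr5med-CD24low (immediate progenitors), Lgr5low-CD24low (subsequent progenitors) and Lgr5neg-CD24neg cells (differentiated cells). All groups share the reporter, and each mouse gave 1 library per population, so that 24 libraries form 8 groups of 3.

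Before S phase, the origin recognition complex marks origins on DNA, and Cdc6 and Cdt1 load pairs of MCM hexamers there. Loading is confined to the low-kinase period around G1, and in S phase and G2 geminin binds Cdt1 and blocks a further round, while Cdt1 is also degraded by an ubiquitin ligase that recognises it on PCNA at replication forks. The kinase formed by Cdc7 and Dbf4, together with Cdc45, the GINS complex and Mcm10, turns loaded hexamers into active helicases. Many of these genes are transcribed under E2F factors as cells enter the cycle, and in the intestine their products mark the dividing cells of the crypt.

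The promoters of 8 of the 10 genes could be matched to the RefSeq promoter table (GRCm38.p6; 250 bases before to 50 after each start, 9 promoters because Mcm7 has 2). The letters TTTCCCGC, TTTGGCGC, TTTCGCGC and TTTGCCGC, 4 spellings of the E2F consensus, were searched on both strands, and matches may overlap. They were present in 6 of the 8 genes (Mcm3, Mcm5, Mcm6, Mcm7, Cdc6 and Cdt1, not Mcm2 or Mcm10) and in 2.26% of all 32851 promoters. CCAAT, also searched on both strands, was in 6 of the 8 genes and in 37.4% of all promoters. In both counts a gene was included if any of its promoters matched, whereas the shares are per promoter. Only 1 of the 2 Mcm7 promoters held an E2F match. A match describes letters, not a bound site. The 180 bases before the start are printed for Mcm6, which had the largest NRG1 difference of the helicase subunits, for Mcm5, a subunit with a pair of overlapping matches, and for Mcm10, which had no match and did not pass the test under NRG1. Mcm2, which also had no match, was called lower under NRG1 in Lgr5high cells (log2 difference -0.61). Whether matches go with the NRG1 response was not tested. Capitals mark the E2F matches. The stretches are chr1:128359706-128359885 (minus strand) for Mcm6, chr8:75109329-75109508 (plus strand) for Mcm5 and chr2:5012792-5012971 (minus strand) for Mcm10.
Mcm6: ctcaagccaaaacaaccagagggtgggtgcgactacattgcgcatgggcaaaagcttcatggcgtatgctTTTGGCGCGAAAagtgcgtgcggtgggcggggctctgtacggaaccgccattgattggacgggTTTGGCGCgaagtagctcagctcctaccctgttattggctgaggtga
Mcm5: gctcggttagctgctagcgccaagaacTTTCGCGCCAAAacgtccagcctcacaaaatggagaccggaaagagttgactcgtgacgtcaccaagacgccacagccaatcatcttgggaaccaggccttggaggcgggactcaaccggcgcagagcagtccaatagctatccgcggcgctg
Mcm10: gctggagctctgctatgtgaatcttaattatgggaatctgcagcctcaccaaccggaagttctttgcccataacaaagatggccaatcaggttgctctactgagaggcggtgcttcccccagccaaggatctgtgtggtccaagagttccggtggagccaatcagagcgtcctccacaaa
In Mcm6 the matches began 110, 106 and 47 bases before the start, and in Mcm5 153 and 149 bases before it. Cdc6 held 1 match (GCGGGAAA, the reverse complement of TTTCCCGC) 138 bases before its start, and Mcm7 held the same letters 165 bases before one of its starts.

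The populations were checked against Lgr5, whose reporter set the gates. In PBS mice its level was 171 ± 62.0 CPM (edgeR's counts relative to the library total, on a scale common to all libraries) in Lgr5high, 28.9 ± 20.0 in Lgr5med, 8.39 ± 2.41 in Lgr5low and 1.30 ± 0.286 in Lgr5neg cells (SD, n = 3). Libraries held 11176264 to 23343499 counts, and 37.6% to 62.4% of them came from 2 mitochondrial ribosomal RNAs (mt-Rnr1, mt-Rnr2). All 10 licensing genes passed the filter on low counts in every comparison. Their lowest count was 3 (Mcm5 in Lgr5neg NRG1 replicate 3), and outside Lgr5neg cells it was 70. A count of 3 was worth 0.112 to 0.247 CPM. As these are bulk libraries, fewer cells that express a gene and less RNA of it per cell cannot be told apart.

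In untreated crypts the licensing genes were abundant in the 3 Lgr5-positive populations and low in differentiated cells. Levels between genes are comparable only per kilobase of exon, for which the union of all annotated exons was used. Per kilobase, Mcm6 led in Lgr5high PBS cells at 24.1 ± 3.62 CPM (SD, n = 3), followed by Mcm7 at 16.7, Mcm4 at 16.6, Mcm3 at 13.5, Gmnn at 12.2, Mcm5 at 11.2, Cdt1 at 8.82, Mcm2 at 7.47, Mcm10 at 5.09 and Cdc6 at 2.70. Neighbours in this order had overlapping libraries except Mcm6 over Mcm7, Mcm2 over Mcm10 and Mcm10 over Cdc6. In Lgr5neg PBS cells the order was led by Gmnn, at 4.61 ± 2.17 CPM per kilobase, above Mcm7 at 1.32 with no overlap of libraries. The low values of Mcm2, Mcm10 and Cdc6 rest in part on long annotated exon unions of 6956, 7692 and 5229 bases.

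Mcm6, on chromosome 1 (128331590 to 128359664, GRCm38, minus strand), showed the gradient across the gates. Its level in the 3 PBS replicates was 96.5, 111 and 130 CPM in Lgr5high, 89.4, 77.0 and 80.8 in Lgr5med, 63.5, 61.5 and 53.8 in Lgr5low and 7.12, 5.07 and 5.10 in Lgr5neg cells. These 4 groups did not overlap. Mcm3, a subunit on chromosome 1 (20802968 to 20820312), stood at 44.4, 49.6 and 57.8 CPM in Lgr5high, 47.3, 40.2 and 41.2 in Lgr5med, 27.2, 27.3 and 25.0 in Lgr5low and 1.95, 0.805 and 0.988 in Lgr5neg PBS libraries. Its Lgr5high and Lgr5med libraries overlapped, and both lay above Lgr5low. Gmnn, on chromosome 13 (24751845 to 24761923), was much flatter, with 16.0, 17.7 and 19.9 CPM in Lgr5high, 14.4, 14.0 and 15.7 in Lgr5med, 12.5, 17.1 and 10.3 in Lgr5low and 10.1, 6.36 and 3.79 in Lgr5neg cells.

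**Figure D1:**
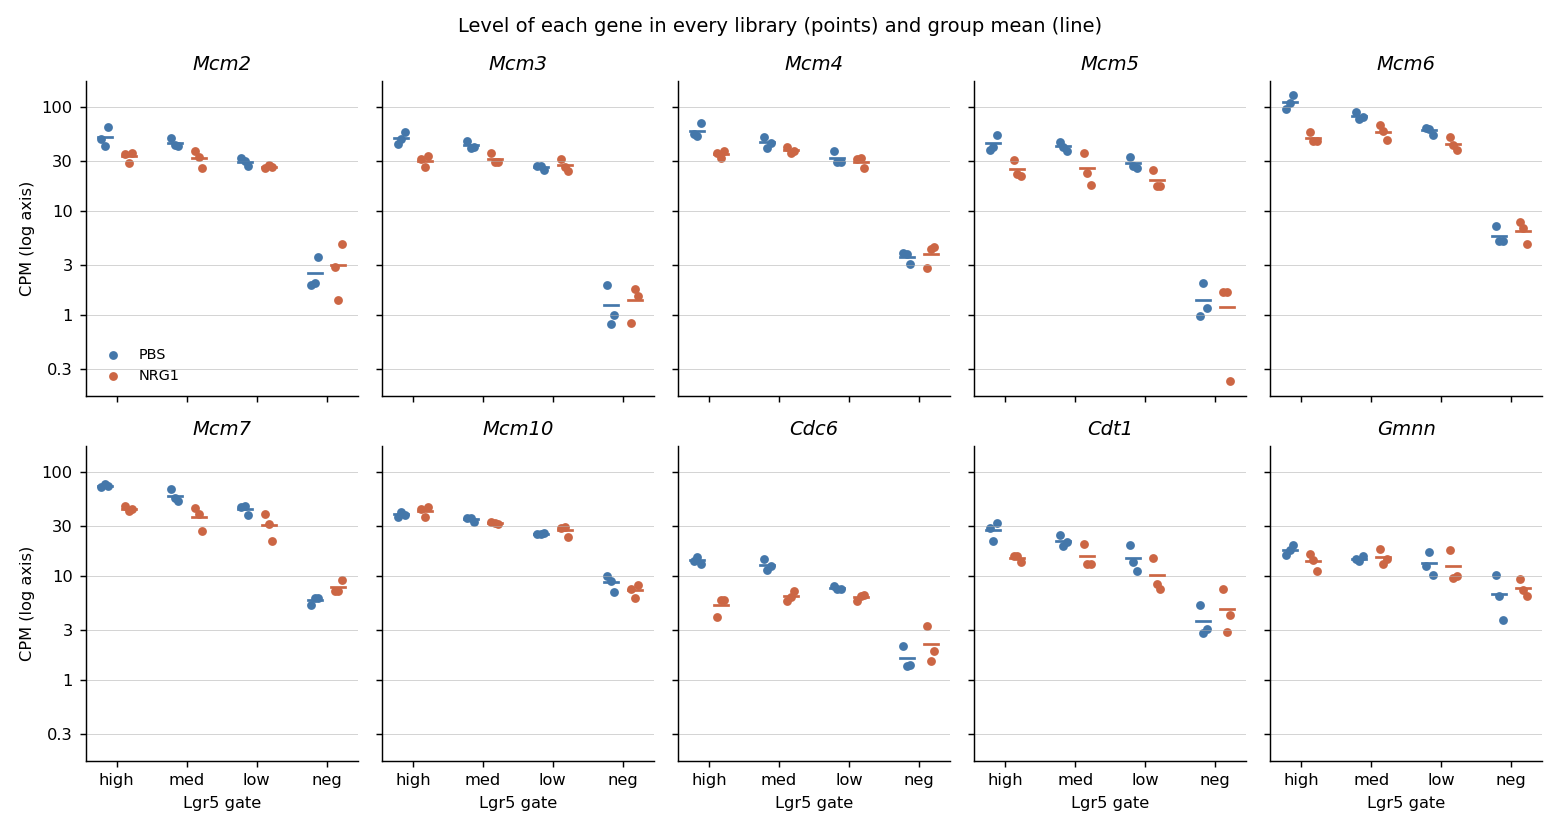
CPM of each licensing gene on a log axis in every library, by Lgr5 gate and treatment (blue PBS, orange NRG1; points are libraries, lines are means of 3). In Lgr5high cells the 3 NRG1 libraries lie below the 3 PBS libraries for Mcm2 to Mcm7, Cdc6 and Cdt1, and the means of all 10 genes are lowest in Lgr5neg cells.

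Differences between neighbouring populations of PBS mice were tested with edgeR's quasi-likelihood test, adjusted over all genes by Benjamini-Hochberg and called at an adjusted p under 0.05. Between Lgr5high and Lgr5med cells none of the 10 genes passed (3 at an unadjusted p under 0.05), beside 2.44% of all genes called higher in Lgr5high. All 10 differences were above 0, from 0.09 for Mcm5 to 0.45 for Mcm6 on the log2 scale. The value for Mcm6 (SE 0.144) had an adjusted p of 0.0559, and DESeq2 called it (0.0206), as did the fit with the mouse as a block (0.0347). From Lgr5med to Lgr5low, 4 genes were higher in Lgr5med cells, beside 2% of all genes: Cdc6 by 0.73 (SE 0.183, adjusted p = 0.0177), Mcm3 by 0.69 (0.166, 0.0134), Mcm2 by 0.59 (0.178, 0.0474) and Mcm10 by 0.46 (0.137, 0.0453). The other 6 lay between 0.14 (Gmnn) and 0.55 (Cdt1), and with the mouse as a block 9 passed, all but Gmnn. No call of this step survived in the 15-week-old mice alone, nor when Lgr5med PBS replicate 1 or Lgr5low PBS replicate 3 was left out. The count was 1 to 2 without Lgr5high PBS replicate 1, Lgr5low PBS replicate 2, or Lgr5med PBS replicate 2 or 3, and 8 without Lgr5neg PBS replicate 1.

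The step to differentiated cells was called for every gene and was smallest for Gmnn. Lgr5low PBS cells exceeded Lgr5neg PBS cells for all 10, where 30.6% of all genes were called higher. Mcm3 differed by 4.38 (SE 0.230, adjusted p = 2.03e-11) and Mcm5 by 4.38 (0.237, 2.62e-11) on the log2 scale, whereas Mcm10 differed by 1.54 (0.149, 4.83e-08) and Gmnn by 0.96 (0.261, 0.00421). Lgr5high cells were higher than Lgr5neg cells for all 10 genes as well, beside 35.4% of all genes, from 5.31 for Mcm3 (SE 0.230, adjusted p = 3.82e-13) down to 1.39 for Gmnn (0.260, 0.000117). Among the helicase subunits the smallest difference was that of Mcm7, at 3.65 (SE 0.158). Markers of other cells moved with this step: the 11 immune markers with counts in any library summed to 103 to 327 CPM in Lgr5neg (all with counts) and 6.63 to 31.8 CPM in Lgr5low PBS libraries (9 with counts, Trbc2 and Cd79a at 0), and 8 of the 9 tested were called higher in Lgr5neg cells. The 10 enterocyte markers were all called higher there as well. In this comparison of Lgr5low with Lgr5neg cells, 7931 of 14203 genes were called in either direction. The part of either list in the licensing genes' differences was not tested. These comparisons of populations share libraries with each other.

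Subunit composition was also described as each subunit's share of the summed Mcm2 to Mcm7 levels, taken as CPM per kilobase of exon. In Lgr5high PBS cells Mcm6 made up 26.9 ± 1.12% (SD, n = 3) and Mcm2 8.30 ± 1.08%. In Lgr5neg PBS cells Mcm3 held 7.14 ± 3.17% against 15.0 ± 0.411% in Lgr5high, and Mcm7 28.8 ± 3.81% against 18.8 ± 2.29%. The libraries of these groups did not overlap for either gene. Mcm7 shares 7.25% of its exonic bases with Ap4m1 and 1.45% with Cops6 on the opposite strand. The strand setting of the counting is not given in the sources used here, so reads of these genes cannot be told apart there.

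Most of the licensing genes were lower after NRG1 in the stem cell gate. In Lgr5high cells 8 of the 10 fell (Mcm2 to Mcm7, Cdc6 and Cdt1), beside 4.15% of all genes called lower and 3.18% called higher. Their median log2 difference over all 10 was -0.73, against 0.01 over the 13322 genes tested. Mcm10 and Gmnn did not pass, and 9 of the 10 genes had an unadjusted p under 0.05. The 6 subunits of the hexamer together took 0.0845 ± 0.0118% of the counts outside mitochondrial ribosomal RNA in PBS and 0.0463 ± 0.00460% in NRG1 libraries of this gate (SD, n = 3), with no overlap.

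Among the loading factors, Cdc6, the ATPase that recruits the helicase to origins (chromosome 11, 98907801 to 98923940, plus strand), changed most. Its level was 14.0, 15.3 and 13.2 CPM in PBS and 4.00, 5.81 and 5.81 CPM in NRG1 libraries of Lgr5high cells. The highest NRG1 library lay under the lowest PBS library, and the gene fell by 1.43 on the log2 scale (SE 0.184, adjusted p = 0.000332). Cdt1, its partner in loading (chromosome 8, 122568015 to 122573554), was at 29.3, 21.7 and 32.1 CPM in PBS and 15.6, 15.6 and 13.5 CPM in NRG1 libraries. It fell by 0.88 with no overlap between the groups (SE 0.155, adjusted p = 0.00285).

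Of the helicase subunits, Mcm6 changed most, from 96.5, 111 and 130 CPM to 57.3, 47.2 and 47.0 CPM, a fall of 1.14 (SE 0.129, adjusted p = 0.000183). Mcm5 (chromosome 8, 75109569 to 75128439) went from 38.6, 41.7 and 53.9 CPM to 30.8, 22.7 and 21.9 CPM and fell by 0.82 (SE 0.157, adjusted p = 0.00572). Mcm4 (chromosome 16, 15623897 to 15637400) went from 54.9, 53.3 and 70.4 CPM to 36.1, 32.1 and 37.7 CPM and fell by 0.74 (SE 0.129, adjusted p = 0.00258). In all 3 genes each NRG1 library was below each PBS library, as the plot of levels by gate shows.

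The same separation held for the remaining subunits. Mcm3 was at 31.4, 26.4 and 33.5 CPM in the NRG1 libraries and fell by 0.72 (SE 0.131, adjusted p = 0.00361). Mcm7 (chromosome 5, 138164583 to 138172422) went from 72.0, 76.6 and 73.3 CPM to 47.8, 41.8 and 44.4 CPM and fell by 0.71 (SE 0.109, adjusted p = 0.00112). Mcm2 (chromosome 6, 88883474 to 88898780) went from 49.6, 42.0 and 64.2 CPM to 35.5, 28.9 and 36.4 CPM and fell by 0.61 (SE 0.150, adjusted p = 0.0214). The call of Mcm2 was the least stable of the 8: it ended without NRG1 replicate 1 (0.0520), NRG1 replicate 2 (0.0920) or PBS replicate 3 (0.0566), and in the 15-week-old mice alone (0.0739). In those mice the call of Mcm5 ended too (0.0550). When all 24 libraries shared 1 model, Mcm2 (0.126), Mcm5 (0.0978) and Cdt1 (0.0871) no longer passed and the count was 5.

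Mcm10 and Gmnn were the genes not called in this gate. Mcm10 (chromosome 2, 4989714 to 5012791) was at 37.3, 41.5 and 38.7 CPM in PBS and 43.9, 36.7 and 45.8 CPM in NRG1 libraries of Lgr5high cells, with overlap (log2 difference 0.12, SE 0.120, adjusted p = 0.615). Per 100 counts of the hexamer, Mcm10 took 8.60 to 11.1 counts in PBS and 18.4 to 20.7 in NRG1 libraries. This ratio moves with the hexamer genes, which were called lower, and is no separate sign of a rise in Mcm10. Gmnn was at 16.0, 17.7 and 19.9 CPM in PBS and 16.4, 14.3 and 11.1 CPM in NRG1 libraries, which overlapped (-0.34, SE 0.161, adjusted p = 0.215). Its unadjusted p by the same edgeR test was 0.0484. Whether the response of Gmnn differed from that of the called genes was not tested.

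**Figure D2:**
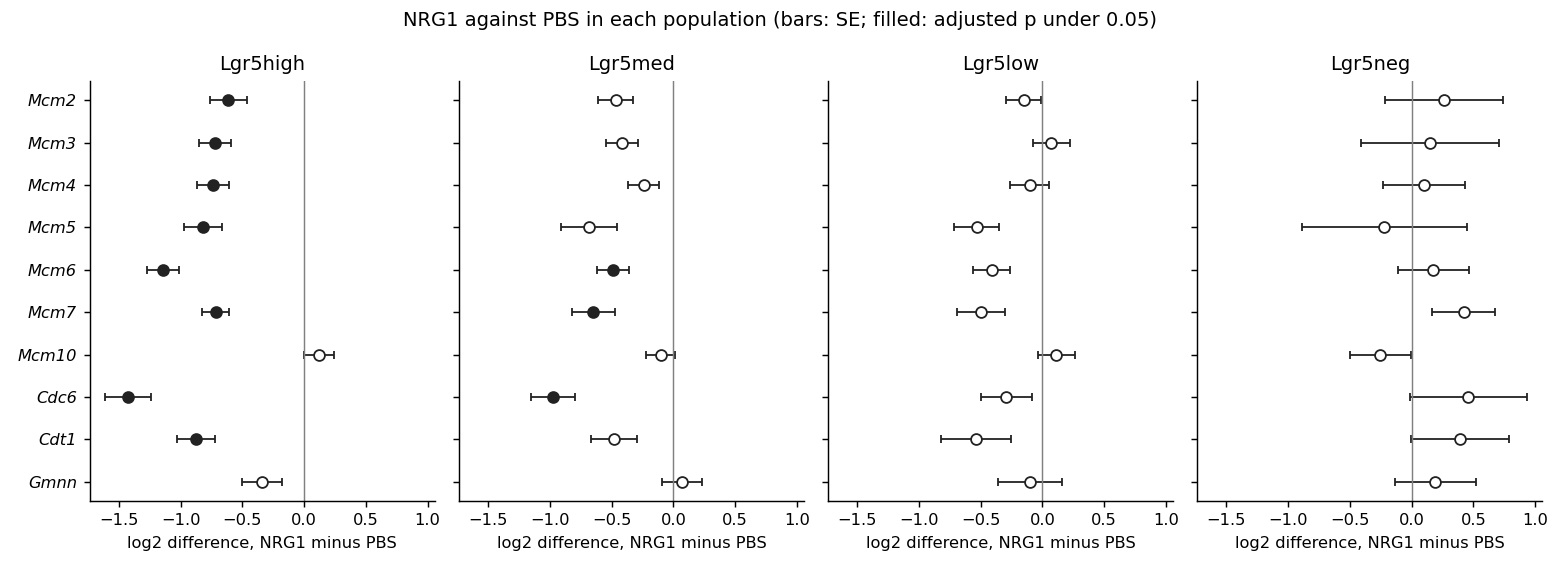
Log2 difference of NRG1 minus PBS for each licensing gene in the 4 populations (points, with bars of 1 SE from the edgeR fit; filled points have an adjusted p under 0.05). In Lgr5high cells 8 genes are filled and lie between -1.43 and -0.61, in Lgr5med cells Cdc6, Mcm6 and Mcm7 are filled, and none is filled in Lgr5low or Lgr5neg cells.

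In the immediate progenitors fewer of these genes passed. In Lgr5med cells 3 of the 10 fell (7 at an unadjusted p under 0.05), beside 5.79% of all genes called lower and 3.76% called higher. The median log2 difference was -0.47 over the 10 genes against 0.01 over all genes. Cdc6 was at 14.5, 11.4 and 12.4 CPM in PBS and 5.79, 6.23 and 7.16 CPM in NRG1 libraries, which did not overlap, and fell by 0.98 (SE 0.180, adjusted p = 0.00496). Mcm7 was at 68.2, 57.0 and 52.6 against 45.2, 39.8 and 26.9 CPM and fell by 0.65 (SE 0.175, adjusted p = 0.0379). Mcm6 was at 89.4, 77.0 and 80.8 against 67.0, 58.8 and 48.2 CPM and fell by 0.49 (SE 0.132, adjusted p = 0.0337). In each of these 3 genes the NRG1 libraries all lay below the PBS libraries.

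The other Lgr5med values were -0.68 for Mcm5 (adjusted p = 0.0963), -0.48 for Cdt1 (0.121), -0.47 for Mcm2 (0.0562), -0.42 for Mcm3 (0.0573), -0.24 for Mcm4 (0.262), -0.10 for Mcm10 (0.638) and 0.07 for Gmnn (0.827). A block for the replicate number gave 7 lower genes in Lgr5med cells, the additional ones being Mcm5 (adjusted p = 0.000605), Mcm2 (0.00727), Mcm3 (0.0147) and Cdt1 (0.0176). The calls of Mcm6 and Mcm7 ended without PBS replicate 1, 2 or 3 or NRG1 replicate 2 or 3, and in the 15-week-old mice alone (0.167 and 0.0655), each leaving Cdc6 as the single call, whereas 7 genes were lower without NRG1 replicate 1. With all 24 libraries in 1 model the call of Mcm6 ended (0.0568). NRG1 replicate 1 had the highest NRG1 level of Mcm2 to Mcm7 and Cdt1 in this gate.

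Further down the gates no licensing gene passed. In Lgr5low cells 0 of 10 were called, by edgeR and by DESeq2, with 3 at an unadjusted p under 0.05, beside 0.3% of all genes lower and 0.143% higher. The values ran from -0.54 for Cdt1 and -0.53 for Mcm5 to 0.11 for Mcm10. Mcm5 was at 33.4, 27.3 and 26.0 CPM in PBS and 24.9, 17.4 and 17.5 CPM in NRG1 libraries without overlap, and with the replicate number as a block Mcm5 (-0.54, adjusted p = 0.0395) and Mcm7 (-0.53, 0.0396) passed. In Lgr5neg cells 0 of 10 were called by either tool, with 0 at an unadjusted p under 0.05, beside 0.176% of all genes lower and 0.151% higher. There the values lay between -0.25 (Mcm10) and 0.46 (Cdc6), with standard errors of 0.245 to 0.669 at counts of 3 to 135 per library.

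Whether the NRG1 response itself differed from that of Lgr5high cells was tested with an interaction term, fitted on the 24 libraries together. In Lgr5neg minus Lgr5high cells, Cdc6 differed by 1.87 (SE 0.352, adjusted p = 0.0338) and Mcm6 by 1.32 (SE 0.253, adjusted p = 0.0375), beside 0.0399% of all genes called in that direction. The background moved with the settings: the count over all genes in both directions was 8, but 150 with no filter, 50 with DESeq2, 65 with the mouse as a block, 1 without Lgr5high NRG1 replicate 1 and 18 without Lgr5neg NRG1 replicate 3. Both calls were lost in the 15-week-old mice alone (0.298 for Cdc6, 0.266 for Mcm6) and when only the 12 libraries of these 2 gates were fitted (0.193 and 0.147). Leaving out single libraries gave adjusted p-values of 0.0189 to 0.130 for Cdc6 and 0.00644 to 0.116 for Mcm6, and ended the call in 10 and 11 of 24 fits. For Lgr5med minus Lgr5high and for Lgr5low minus Lgr5high no licensing gene passed with edgeR or DESeq2, with 2 and 4 at an unadjusted p under 0.05, and 0% of all genes were called in either test. A difference in the response of these gates was therefore not shown.

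The 2 age groups were read separately, as replicate 3 was younger in both treatments. In Lgr5high cells 9 of the 10 genes were below 0 in the 15-week-old mice (2 against 2, median -0.68) and 9 in the 11-week-old mice (1 against 1, median -0.87), with Mcm10 above 0 in both. In Lgr5med cells 9 and 10 were below 0 (medians -0.41 and -0.69), in Lgr5low cells 8 and 10 (-0.29 and -0.20), and in Lgr5neg cells 3 and 2 (0.13 and 0.42).

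Other measures moved with NRG1 in these libraries. Counts of mt-Rnr1 per 100 mt-Rnr2 were 38.6 to 51.6 in NRG1 and 18.1 to 42.9 in PBS libraries of Lgr5high cells, and 38.0 to 51.3 against 18.5 to 20.5 in Lgr5med cells. The ratio was also higher without overlap in Lgr5low cells, at 38.4 to 54.2 against 27.6 to 32.1, and in Lgr5neg cells, at 40.8 to 43.5 against 20.2 to 24.5. With both genes left out before scaling, the count of licensing genes called lower was 8 in Lgr5high and 3 in Lgr5med cells. Leaving them out does not remove a difference between the libraries, and the part of this ratio in the result was not tested. In Lgr5high cells the summed level of the 11 immune markers that had counts in any library was 14.1 to 40.3 CPM in NRG1 libraries (8 with counts there, Cd3g, Cd7 and Trbc2 at 0) and 44.5 to 84.6 CPM in PBS libraries (10 with counts there, Trbc2 at 0), and its part in the result was not tested. Of 8 Paneth cell markers 2 were called lower there, beside 4.15% of all genes, and all 8 values were below 0 (median -0.67). Their sums were 1150 to 1896 CPM in NRG1 and 1839 to 3200 CPM in PBS libraries. Of 6 enteroendocrine markers tested, 1 was called lower and all 6 were below 0 (median -1.76), with sums of 14.3 to 36.3 against 25.4 to 147 CPM over the 8 on the list. The parts of these lists in the result were not tested. The 10 stem cell markers, all with counts in every gate, summed to 4107 to 4600 CPM in NRG1 and 3875 to 5426 CPM in PBS libraries of Lgr5high cells, where none was called. Their sums were 2462 to 3007 against 1441 to 2539 CPM in Lgr5med and 1087 to 1599 against 705 to 759 CPM in Lgr5low cells. In each of these gates all 10 values were above 0 and 1 was called higher, beside 3.76% and 0.143% of all genes. Lgr5 itself was at 54.5 ± 19.6 CPM in NRG1 and 28.9 ± 20.0 CPM in PBS libraries of Lgr5med cells (SD, n = 3), with overlap. The part of the stem cell markers in the Lgr5med and Lgr5low values was not tested. In Lgr5med cells the 10 enterocyte markers, all with counts, summed to 1070 to 1725 CPM in NRG1 and 2057 to 2458 CPM in PBS libraries, and the part of this difference was not tested either.

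The balance of RNA of Gmnn, the inhibitor, to Cdt1, its target, was compared within each library, where no scaling between libraries enters. Protein was not measured. The ratio moves with both genes: Cdt1 differed under NRG1 by -0.88 in Lgr5high and -0.48 in Lgr5med cells, and Gmnn by -0.34 and 0.07. The part of each was not tested. In Lgr5high cells Gmnn counts per 100 Cdt1 counts were 54.7, 81.6 and 62.0 in PBS and 105, 91.9 and 82.0 in NRG1 libraries. The NRG1 values were above all PBS values, the closest pair being 82.0 and 81.6, with a mean log2 difference of 0.51 (two-sided exact permutation p = 0.1, the smallest that 3 against 3 allows). In Lgr5med cells they were 57.8, 72.2 and 73.7 against 88.7, 101 and 112, again without overlap (0.57, exact p = 0.1). In Lgr5low cells the groups overlapped, at 62.2, 126 and 92.5 against 119, 115 and 131 (0.43, exact p = 0.3), as they did in Lgr5neg cells, at 193, 226 and 124 against 124, 255 and 153 (-0.05, exact p = 1).

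The hexamer was also set against 24 genes of G2 and mitosis in the same libraries. In Lgr5high cells 23 of these 24 rose and none fell, beside 3.18% of all genes called higher and 4.15% called lower. Cdc20, which activates the ubiquitin ligase of anaphase, rose by 1.34 (SE 0.140, adjusted p = 9.11e-05) and the centromeric histone Cenpa by 1.25. Mcm2 to Mcm7 gave 12.0, 11.7 and 15.5 counts per 100 counts of the G2 and mitosis genes in PBS and 4.44, 4.51 and 3.92 in NRG1 libraries of this gate. The ratio was 11.3 to 13.0 against 5.71 to 7.23 in Lgr5med cells and 9.29 to 10.1 against 6.18 to 6.86 in Lgr5low cells, with no overlap in any of the 3 gates. In Lgr5neg cells the groups overlapped, at 12.1 to 16.2 against 8.22 to 13.1. Of the 24 G2 and mitosis genes, 11 were called higher under NRG1 in Lgr5med cells, beside 3.76% of all genes. In Lgr5low and Lgr5neg cells 0 of the 24 were called, with 22 and 24 values above 0. The ratio moves with both sets of genes, and the part of each was not tested.

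**Figure D3:**
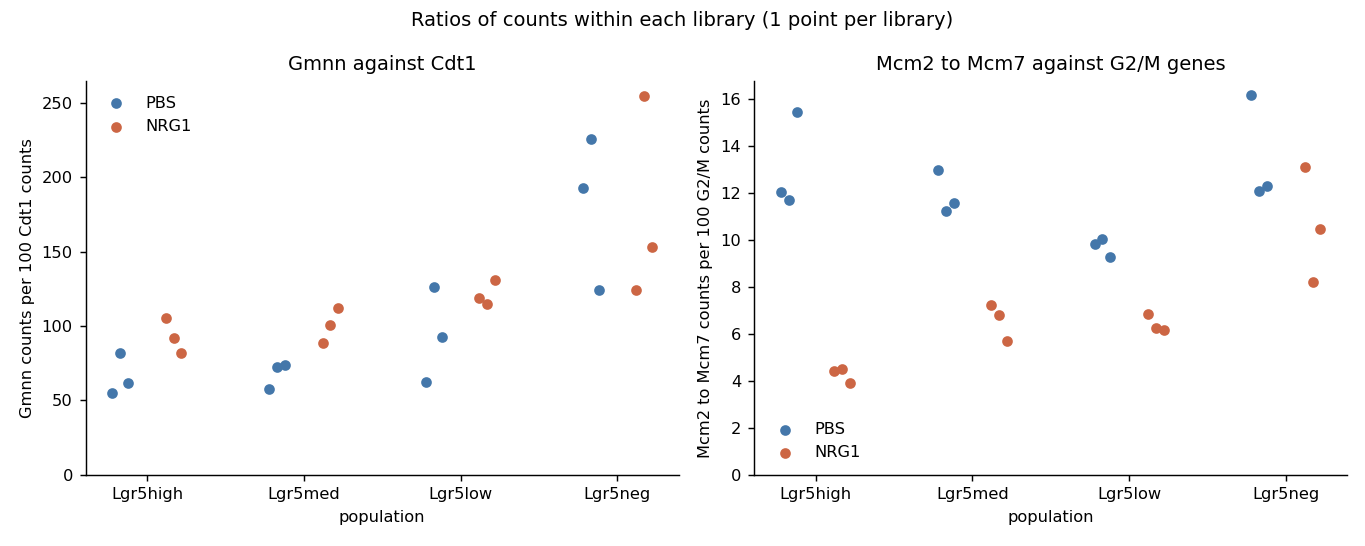
Counts of Gmnn per 100 counts of Cdt1 (left) and of Mcm2 to Mcm7 per 100 counts of 24 G2 and mitosis genes (right), 1 point per library, by population and treatment, on linear axes from 0. On the right the NRG1 libraries lie below the PBS libraries in the Lgr5high, Lgr5med and Lgr5low gates, at 3.92 to 4.51 against 11.7 to 15.5 in Lgr5high cells, and on the left they lie above them in the Lgr5high and Lgr5med gates.

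Other genes of the pathway were read from lists of origin recognition, helicase activation, factor turnover and related MCM genes. None of the 8 origin recognition genes (Orc1 to Orc6, Lrwd1 and Kat7) passed in Lgr5high or Lgr5med cells, with medians of -0.08 and 0.06. Their values in Lgr5high cells lay between -0.54 and 0.24. Of 13 helicase activation genes in Lgr5high cells, 2 fell and 2 rose (median -0.13), beside 4.15% of all genes called lower and 3.18% higher. The subunits of the initiating kinase went in opposite directions. Cdc7, the catalytic subunit, fell by 0.95 (SE 0.206, adjusted p = 0.0104), and Dbf4, its activator, rose by 0.71 (SE 0.142, adjusted p = 0.00623). Wdhd1, a fork protein, fell by 0.57 and Ticrr, which helps to load Cdc45, rose by 0.57. In Lgr5med cells 1 of the 13 fell, Wdhd1 (-0.59, adjusted p = 0.0138), and Dbf4 (0.51, 0.0329) and the GINS subunit Gins4 (0.47, 0.0353) rose. There 5.79% of all genes were called lower and 3.76% higher.

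Genes that remove or restrain licensing factors moved in both directions. Of 11 tested in Lgr5high cells, 6 fell and 1 rose (median -0.40), beside 4.15% of all genes called lower and 3.18% higher. Pcna, the sliding clamp on which Cdt1 is recognised, fell by 0.90 (SE 0.122, adjusted p = 0.000409) and Dtl, the receptor of the ligase that recognises it, fell by 0.88 (SE 0.117, adjusted p = 0.000401). Rbx1, the RING subunit of cullin ligases, fell by 0.47 (SE 0.135, adjusted p = 0.0428). Fzr1, an activator of the anaphase-promoting complex that marks geminin for destruction, was at 10.2 ± 1.10 CPM in PBS and 17.9 ± 2.13 CPM in NRG1 libraries (SD, n = 3) and rose by 0.82 (SE 0.152, adjusted p = 0.00405). In Lgr5med cells 2 of the 11 fell, Dtl (-0.53, adjusted p = 0.0226) and the cullin Cul4a (-0.48, 0.0171), while the cullin Cul4b (0.47, 0.0336) and Skp1a (0.46, 0.0394), an adaptor of another cullin ligase, rose. The shares of all genes called in this gate were 5.79% lower and 3.76% higher.

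Of 3 related genes tested in Lgr5high cells, Mcm9, an MCM family member that acts in DNA repair, fell by 0.74 (SE 0.161, adjusted p = 0.0106), and the other two had values of 0.18 and 0.65 and did not pass. In Lgr5low and Lgr5neg cells no gene of the 4 lists was called, beside 0.3% and 0.176% of all genes lower and 0.143% and 0.151% higher.

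**Figure D4:**
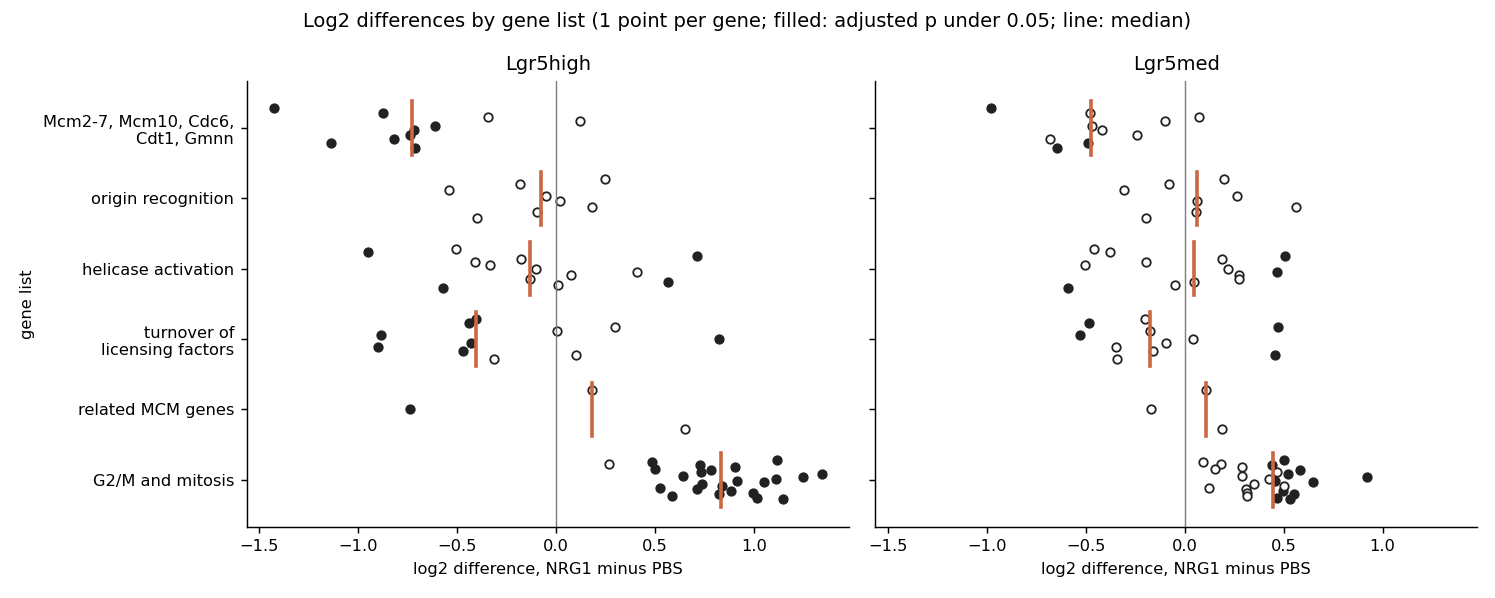
Log2 difference of NRG1 minus PBS for every tested gene of 6 lists in Lgr5high and Lgr5med cells (1 point per gene; filled points have an adjusted p under 0.05; the vertical line is the list's median). The medians in Lgr5high cells are -0.73 for the 10 licensing genes, -0.08 for origin recognition and 0.83 for G2 and mitosis.

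The populations were compared in the same way in NRG1 mice. Between Lgr5high and Lgr5med cells none of the 10 genes passed (1 at an unadjusted p under 0.05, 0 by DESeq2), beside 0.594% of all genes called higher, and 3 of the 10 values were above 0. Between Lgr5med and Lgr5low cells none passed either (2 at an unadjusted p under 0.05, 0 by DESeq2), beside 0.923% of all genes, with all 10 above 0. Lgr5low cells again exceeded Lgr5neg cells for all 10, beside 30.4% of all genes, from 4.28 for Mcm3 (SE 0.228) to 0.66 for Gmnn (SE 0.250, adjusted p = 0.0311). All 10 were also higher in Lgr5high than in Lgr5neg cells, beside 33.5% of all genes, and Cdc6 differed by 1.18 (SE 0.284, adjusted p = 0.00143). For the Lgr5low step, the call of Gmnn ended without Lgr5low NRG1 replicate 1 (0.245) or Lgr5neg NRG1 replicate 2 (0.0765) or 3 (0.110), and that of Cdt1 without Lgr5low NRG1 replicate 1 (0.0659) or Lgr5neg NRG1 replicate 2 (0.0545). Both ended in the 15-week-old mice alone (0.0840 and 0.0535), and that of Gmnn also with only the 6 libraries of these gates (0.0555).

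Likeness among the genes was described by Pearson's r of log2 CPM with the mean profile of the other hexamer genes. Over the 18 libraries without Lgr5neg cells it was 0.906 to 0.961 for the 6 subunits and 0.926 for Cdt1, but 0.775 for Cdc6, 0.639 for Gmnn and 0.573 for Mcm10. Outside the 10 genes, those most like Mcm2 to Mcm7 over these libraries were Rpa2 (0.956), which encodes a subunit of the single-strand binding protein, Chaf1b (0.940), a histone chaperone subunit, Senp1 (0.931), Dut (0.913), Pcna (0.911), Gar1 (0.910), Rpl32 (0.907) and G3bp1 (0.90). Of 9128 genes compared, 0.0767% had an r over 0.9. Over all 24 libraries Rrm1 (0.993), Pola1 (0.992), Ptma (0.992), Gnl3 (0.992), Dtl (0.989), Slfn9 (0.989), Dnmt1 (0.989) and Rrp1b (0.988) led, but 13.8% of genes were then over 0.9, since the Lgr5neg libraries lie far from the rest. The points share mice, and libraries of a group share treatment and gate.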

How the data were processed

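Total RNA of 24 sorted cell samples was sequenced from 15 ng per library with a NuGEN Ovation kit and read once per fragment over 76 nt, per the labels' protocols. The authors used STAR, featureCounts and GRCm38, per the submitters' processing notes. Versions, annotation and strand setting are not given in the sources used here. Deposited values are raw counts of reads per gene symbol, which the authors had not normalised.

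From these counts, each comparison was fitted in R 4.3.3 with the robust quasi-likelihood test of edgeR 4.0.16 after TMM scaling and filterByExpr (count of at least 10, total of at least 15), adjusted by Benjamini-Hochberg over all genes tested and called at an adjusted p under 0.05. NRG1 was compared with PBS on the 6 libraries of a population, populations on the 12 libraries of a treatment, and interactions on all 24. Printed CPM values use TMM over all 24 libraries. Ratios of Gmnn to Cdt1 used counts plus 0.5 and a two-sided exact permutation test. The scripts were tested on simulated data, where edgeR's share of false calls exceeded the nominal rate when each gene had its own dispersion, so calls near the threshold may be liberal. Gene coordinates come from GENCODE vM21 and promoters from RefSeq.

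All 10 licensing genes were counted in every comparison; where few or all passed, those not given singly are covered by the count and range. From the other lists, counts of called genes are given, with at most the 3 lowest and 2 highest called values, and likeness used the 8 genes of highest r among those with a mean log2 CPM of at least 2. The genes and lists were chosen with earlier results of these data known. Alternatives were DESeq2 1.42.0, other scaling, no filter, removal of mt-Rnr1 and mt-Rnr2, other sets of libraries, a replicate or mouse block, the 15-week-old mice alone, and leaving out each library. Libraries of 1 mouse pair the populations by design. The main fits used no block for the mouse or the replicate number. The block was the replicate number where NRG1 was compared with PBS, and the mouse in comparisons of populations and in interactions. For the replicate block, replicate numbers were taken to pair the treatments, because all 12 correlations of same-numbered deviations were above 0.1 (0.109 to 0.396). The number also marks age, as replicate 3 was younger in both treatments, and the part of age in these correlations was not tested. Floors cover counting error only.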

Additional observations from a re-analysis of the deposited data

Results flagged for a closer look

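The NRG1 response of Lgr5neg cells differed from that of Lgr5high cells for 2 licensing genes by the interaction test of edgeR. Cdc6 differed by 1.87 on the log2 scale (adjusted p = 0.0338), with a response of -1.43 in Lgr5high and 0.46 in Lgr5neg cells, where its counts were 17 to 40 per library. Mcm6 differed by 1.32 (adjusted p = 0.0375), with responses of -1.14 and 0.18. DESeq2 called 3 of the 10 genes, and both edgeR calls ended in the 15-week-old mice alone.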

How the results depend on the processing

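In Lgr5high cells the count of licensing genes called lower under NRG1 was 8 with other scaling, DESeq2, no filter, without the mitochondrial ribosomal RNAs and with the replicate block, 6 in the 15-week-old mice alone and 5 with all 24 libraries in 1 model. In Lgr5med cells (main count 3) it was 7 with no filter, 6 with DESeq2, 7 with the replicate block, 2 with all 24 libraries in 1 model, 1 in the 15-week-old mice, and 1 to 7 with single libraries left out. In Lgr5low cells (0) it was 2 with the replicate block. The replicate block changed no call among the 8 in Lgr5high cells or in Lgr5neg cells. With the mouse as a block the interaction of Lgr5neg with Lgr5high cells gave 3 genes. That interaction (2) gave 4 with no filter, 0 in the 15-week-old mice, 0 with only its 12 libraries and 0 to 2 with single libraries left out. Lgr5high against Lgr5med in PBS mice (0) gave 1 with RLE scaling, no filter, DESeq2, the mouse as a block or only 6 libraries, and 0 to 1 with single libraries left out. Lgr5med against Lgr5low in PBS mice (4) gave 7 with RLE scaling, no filter or only 6 libraries, 8 with DESeq2, 9 with the mouse as a block, 0 in the 15-week-old mice, and 0 to 8 with single libraries left out. The cause was not tested.

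In the 15-week-old mice the sign reversed for Mcm2 (-0.031) and Mcm5 (-0.13) between Lgr5high and Lgr5med, for Gmnn (-0.061) between Lgr5med and Lgr5low, and under NRG1 in Lgr5neg cells for Mcm3 (-0.063), Mcm4 (-0.12) and Mcm5 (0.14). With single libraries left out, uncalled values also crossed 0: Mcm5 between Lgr5high and Lgr5med (-0.063 to 0.19), Gmnn between Lgr5med and Lgr5low (-0.013 to 0.36) and, under NRG1, Gmnn in Lgr5med (-0.070 to 0.17). In Lgr5low cells Mcm3 (-0.045 to 0.16), Mcm4 (-0.17 to 0.022) and Gmnn (-0.44 to 0.12) did so. In Lgr5neg cells Mcm2 (-0.24 to 0.60), Mcm3 (-0.10 to 0.61), Mcm4 (-0.019 to 0.28), Mcm5 (-0.57 to 0.26), Cdt1 (-0.072 to 0.71), Gmnn (-0.10 to 0.59) and the log2 ratio of Gmnn to Cdt1 (-0.35 to 0.17) did so.

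The count over all genes under NRG1 was 976 in Lgr5high cells (480 with all 24 libraries, 491 without PBS replicate 2), 1279 in Lgr5med (2333 with the block, 422 without PBS replicate 3), 59 in Lgr5low (573 with the block, 1 without NRG1 replicate 2) and 39 in Lgr5neg (839 with the block, 0 without PBS replicate 1 or 3). Between populations it was 1302 for Lgr5high against Lgr5med in PBS mice (634 without Lgr5med replicate 3, 99 in the 15-week-old mice). In NRG1 mice the main count of the same comparison was lower than the 1302 of PBS mice. From that main count it rose to 1059 with no filter. With the filter it fell to 126 without Lgr5high replicate 1 or Lgr5med replicate 3, and to 68 in the 15-week-old mice. For Lgr5med against Lgr5low it was 1078 in PBS mice (464 without Lgr5med replicate 1, 307 in the 15-week-old mice) and 675 in NRG1 mice (204 without Lgr5low replicate 3, 91 in the 15-week-old mice, 1268 with no filter). The shares of all genes called move with these counts. Low counts limit the Lgr5neg values.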
